A study of Rattus norvegicus with 12 samples.

Results

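Extracellular proteolysis in the endothelium of the ductus arteriosus (DA), the fetal artery that joins the pulmonary artery to the aorta and closes after birth, was described from the genes of the ADAM, ADAMTS and MMP proteases and of the TIMPs. The genes were all those with a single symbol in the platform annotation that starts with Adam (which takes in Adamts and Adamtsl), with Mmp and a digit, or with Timp and a digit. There were 58 such genes among the 14503 genes with a single symbol on the array, namely 19 ADAM, 11 ADAMTS, 3 ADAMTSL, 21 MMP and 4 TIMP genes. Each gene was represented by its brightest probe set, and only Adamts3 had over 1 single-symbol probe set. Adam10, a sheddase well known in vessels, Adam12 and Adamts17 had no single-symbol probe set and were not analysed here.

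The endothelial cells (ECs) came from Wistar rats at day 21 of gestation, delivered by cesarean section and taken before breathing as the F group or 30 minutes after birth as the N group. CD31+/CD45- cells were sorted by FACS from the DA or from the aorta, which gave 4 groups (DA F, aorta F, DA N and aorta N) with 3 arrays each and no genetic change or drug in any of them. CD31 is a surface protein of ECs, and CD45 marks blood-borne cells. Each array held RNA of many pooled litters, so that individual animals cannot be followed and p-values measure only the spread between such pools. The values are log2 signals of Rat Gene 1.0 ST arrays, whose medians lay between 5.63 and 5.76. With 3 arrays a group the precision is limited. All 8 endothelial marker genes were at or above the filter described below, while Ptprc, which encodes CD45, lay below it with a mean of 3.40. In sorted pools of this kind, fewer cells of a type and less RNA per cell cannot be told apart.

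ADAM proteins are membrane proteins, many of which cut the outer parts of other surface proteins free, a step known as shedding. ADAMTS proteins are secreted and bind to the matrix, where they trim procollagens or cut proteoglycans such as versican, and the ADAMTSL proteins resemble them but lack the protease domain. MMPs degrade matrix proteins either as secreted enzymes or, in the membrane types, at the cell surface. TIMPs block the active site of MMPs and of some ADAM and ADAMTS proteases. The DA is known for intimal cushions, thickenings of its wall that are rich in matrix.

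Genes were tested from a mean log2 signal of 4.44 upwards, which was the mean of the lys spike, a bacterial RNA added to every sample. This left 35 genes, of which 31 reached the spike's mean on all 12 arrays and 4 on 6 to 11 arrays. Tested were 8 of 19 ADAM genes, 10 of 11 ADAMTS genes, 3 of 3 ADAMTSL genes, 10 of 21 MMP genes and 4 of 4 TIMP genes. Among the tested genes Mmp9, which encodes gelatinase B, was the one whose mean fell below the spike's in some groups, so none of the calls given below came from a gene that passed the filter through one group alone. The lys spike itself varied between 3.41 and 6.17 over the arrays, and with the filter applied on every array 18 of the 58 genes remained.

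The 23 genes below the spike's mean had means of 2.31 to 4.42 and no array above 4.82. They were not compared between groups, and a low signal of a probe set does not show that a gene was silent. Of the secreted MMPs they held the collagenases Mmp1, Mmp8 and Mmp13, the stromelysins Mmp3 and Mmp10, the matrilysin Mmp7, the macrophage elastase Mmp12, the enamel protease Mmp20, and Mmp19, Mmp21 and Mmp27. Of the ADAM genes they held those best known from germ cells, such as Adam2, Adam3a, Adam5, Adam18, Adam30 and Adam32, together with Adam6, Adam7, Adam28, Adam34 and Adamdec1, and Adamts19 completed them. In the RefSeq order of protein-coding genes, 9 of them (Mmp13, Mmp12, Mmp3, Mmp1, Mmp10, Mmp8, Mmp27, Mmp20 and Mmp7) lay in 1 run on chromosome 8 with 1 other gene between Mmp12 and Mmp3, and 0 of these 9 were tested. Likewise on chromosome 16 Adam32, Adam5, Adam3a and Adam18 followed Adam9, which was tested.

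The promoters at hand for 12 of these genes differed in their letters from those of the tested genes. RefSeq promoter windows (assembly GRCr8, 250 bases before to 50 after the annotated start) were at hand for 37 of the 58 genes, 12 not tested and 25 tested. The windows were searched on both strands for an AP-1 site (TGANTCA), a PEA3 or Ets site (AGGAAG), a GC box (GGGCGG) and a TATA box (TATAAA), and no match of one motif overlapped a match of another. The AP-1 letters were in 7 of the 12 windows of genes not tested, in 0 of the 25 windows of tested genes and in 7.33% of all 27457 promoters. The TATA box was in 10 of the 12 and in 3 of the 25, against 14.3% of all promoters, and the PEA3 letters were in 7 of the 12 and in 5 of the 25, against 34.3%. The GC box was in 0 of the 12 and in 17 of the 25, against 34.9%. All 7 promoters with AP-1 letters were among the 9 of the chromosome 8 run, whose genes are related neighbours and not independent. This run gave 9 of the 12 windows of genes not tested. It held 8 of their 10 windows with a TATA box and 5 of their 7 with PEA3 letters. The contrast is thus largely that of 1 run of genes. The G and C content had a median of 45.3% in the genes not tested and of 68.0% in the tested ones. A match of letters is a description and not a binding site.

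To show this arrangement, the 250 bases before the start of Mmp13 and Mmp3, chosen after the matches were seen, are given in the direction of the gene with the AP-1, PEA3 and TATA letters in capitals. In Mmp13 the AP-1 match began 66 bases and the TATA box 47 bases before the start, and in Mmp3 they began 71 and 32 bases before it.
Mmp13, chr8:12782579-12782828, plus strand: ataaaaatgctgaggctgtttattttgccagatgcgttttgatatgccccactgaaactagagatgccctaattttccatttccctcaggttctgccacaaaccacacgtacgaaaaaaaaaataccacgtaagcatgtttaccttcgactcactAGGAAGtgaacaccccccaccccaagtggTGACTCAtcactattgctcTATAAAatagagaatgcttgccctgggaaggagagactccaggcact
Mmp3, chr8:12925031-12925280, plus strand: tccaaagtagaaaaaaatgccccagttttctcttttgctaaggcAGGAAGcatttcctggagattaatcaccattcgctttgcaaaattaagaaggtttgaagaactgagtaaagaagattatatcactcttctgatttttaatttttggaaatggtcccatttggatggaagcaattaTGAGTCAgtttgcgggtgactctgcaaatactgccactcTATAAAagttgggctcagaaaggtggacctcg

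The first question was whether ECs of the DA and of the aorta differ in these genes. Over both stages together, 11 of the 35 tested genes passed limma's test at an adjusted p under 0.05 (Benjamini-Hochberg over 18690 probe sets), 7 of them higher and 4 lower in the DA. Adamts2, Adamts7, Mmp11, Adamtsl3, Mmp15, Mmp24 and Adam9 were higher, and Mmp28, Mmp16, Adamts3 and Adamts1 were lower. This was 31.4% of the tested genes, and 8.12% of all probe sets tested passed in this comparison, 3.19% higher and 4.93% lower. In all 11 genes the DA and aorta arrays were separated in F and again in N. All 6 differences between arrays of the same replicate number had the same sign. The genes were picked by the test on these same arrays, so this describes them and is no separate support. The 6 signs were also equal in Adamts5, Mmp2, Timp1, Timp2, Timp3 and Timp4, which did not pass. The share of all probe sets with 6 equal signs was not computed, so it cannot be told whether this is unusual. The median absolute log2 difference was 0.18 over the 35 genes, against 0.11 over all probe sets tested. The median signed difference was -0.03, against -0.0004 over all probe sets tested.

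**Figure D1:**
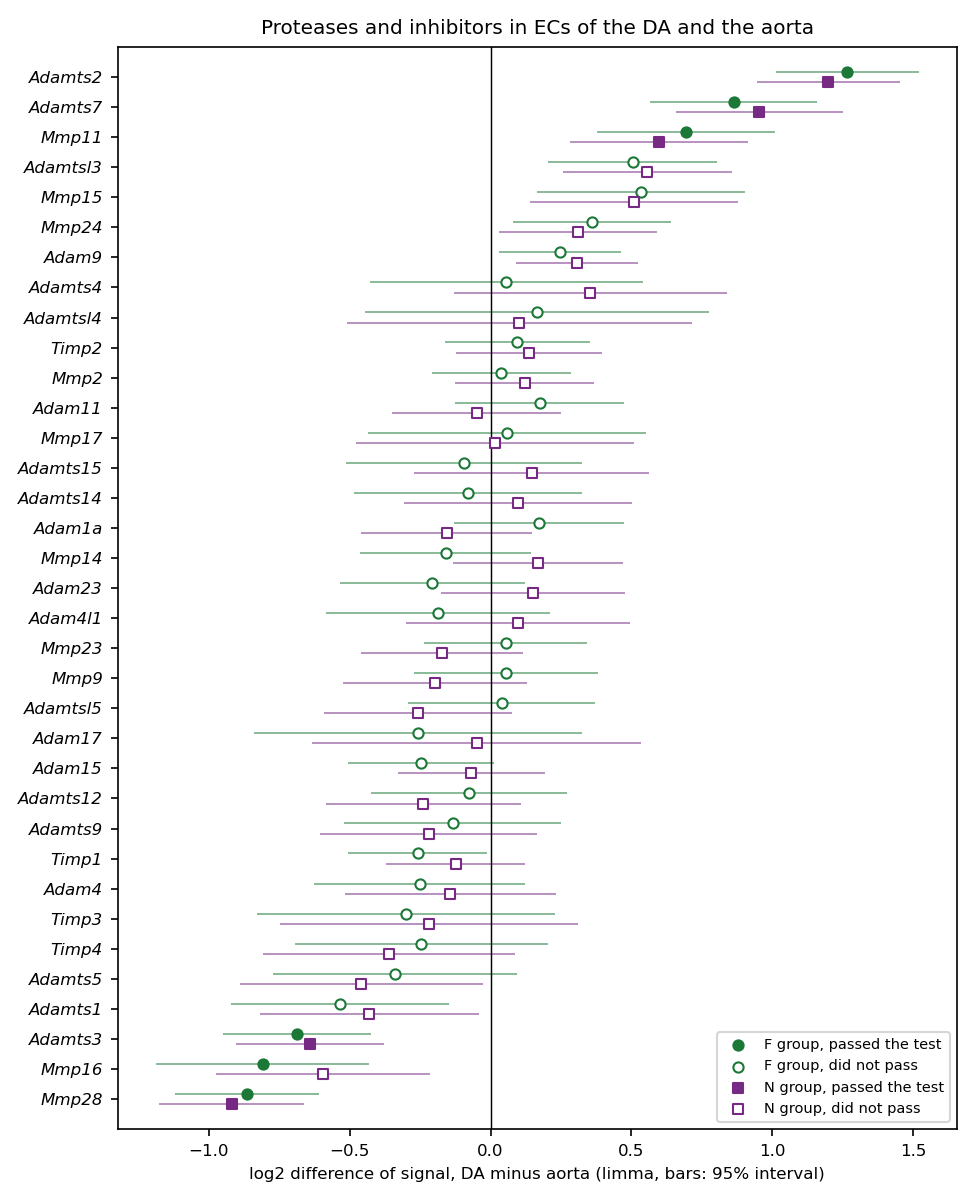
Log2 difference of signal between ECs of the DA and of the aorta (horizontal axis) for the 35 tested genes, with circles for the F group, squares for the N group and bars for the 95% interval from limma. Filled symbols passed at an adjusted p under 0.05, and Adamts2 at the top and Mmp28 at the bottom passed in both groups.

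In F alone 3 genes were higher (Adamts2, Adamts7 and Mmp11) and 3 lower (Mmp28, Mmp16 and Adamts3) in the DA, 17.1% of the tested genes against 3.77% of all probe sets (1.49% higher and 2.28% lower). In N alone the same 3 genes were higher and Mmp28 and Adamts3 were lower, 14.3% against 3.14% (1.26% higher and 1.87% lower). Of these 35 genes, Adamts2 was the only one to pass with a difference of at least 2-fold. Arrays of the DA lay wholly above those of the aorta for 8 genes in F and 9 in N, where 7.73% and 6.98% of all probe sets did so, and wholly below them for 8 genes in F and 4 in N, where 10.9% and 8.30% of all probe sets did so. With the replicate number of the titles as a block, 6 genes were higher and 4 lower in F, and 4 were higher and 4 lower in N. Over both stages 7 were higher and 7 lower. Under that block 10.4%, 7.27% and 17.8% of all probe sets passed, in the same order. Without the 4 arrays of replicate 2, and so with 8 arrays, 1 gene was higher and 0 lower in F, 0 were higher and 0 lower in N, and 2 were higher and 2 lower over both stages.

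The 3 procollagen N-proteinases, which remove the amino-terminal propeptide of fibrillar procollagens, were all tested and did not move together. Adamts2 had log2 signals of 10.82, 10.64 and 10.62 in DA F against 9.49, 9.46 and 9.34 in aorta F. In N its signals were 10.84, 10.74 and 10.76 in the DA against 9.60, 9.42 and 9.73 in the aorta. Every DA array thus lay above every aorta array, at 2.40-fold in F (log2 difference 1.27, SE 0.12, limma adjusted p = 5.23e-05) and 2.30-fold in N (1.20, SE 0.12, limma adjusted p = 9.14e-05). Adamts3 ran the other way, with 8.53, 8.73 and 8.70 in DA F against 9.27, 9.35 and 9.40 in aorta F, and 8.66, 8.48 and 8.42 in DA N against 9.23, 8.99 and 9.26 in aorta N. Its signal was lower by 1.61-fold in F (log2 difference -0.69, limma adjusted p = 0.00543) and by 1.56-fold in N (-0.64, limma adjusted p = 0.0107). The second single-symbol probe set of Adamts3 gave a log2 difference of -0.67 in F (limma adjusted p = 0.00621) and of -0.71 in N (0.00513). Without DA N replicate 2 or aorta N replicate 1 the first probe set did not pass in N (limma adjusted p = 0.0593 to 0.0619). Adamts14, the third enzyme of the group, differed by 0.01 over both stages with an interval of -0.28 to 0.30.

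**Figure D2:**
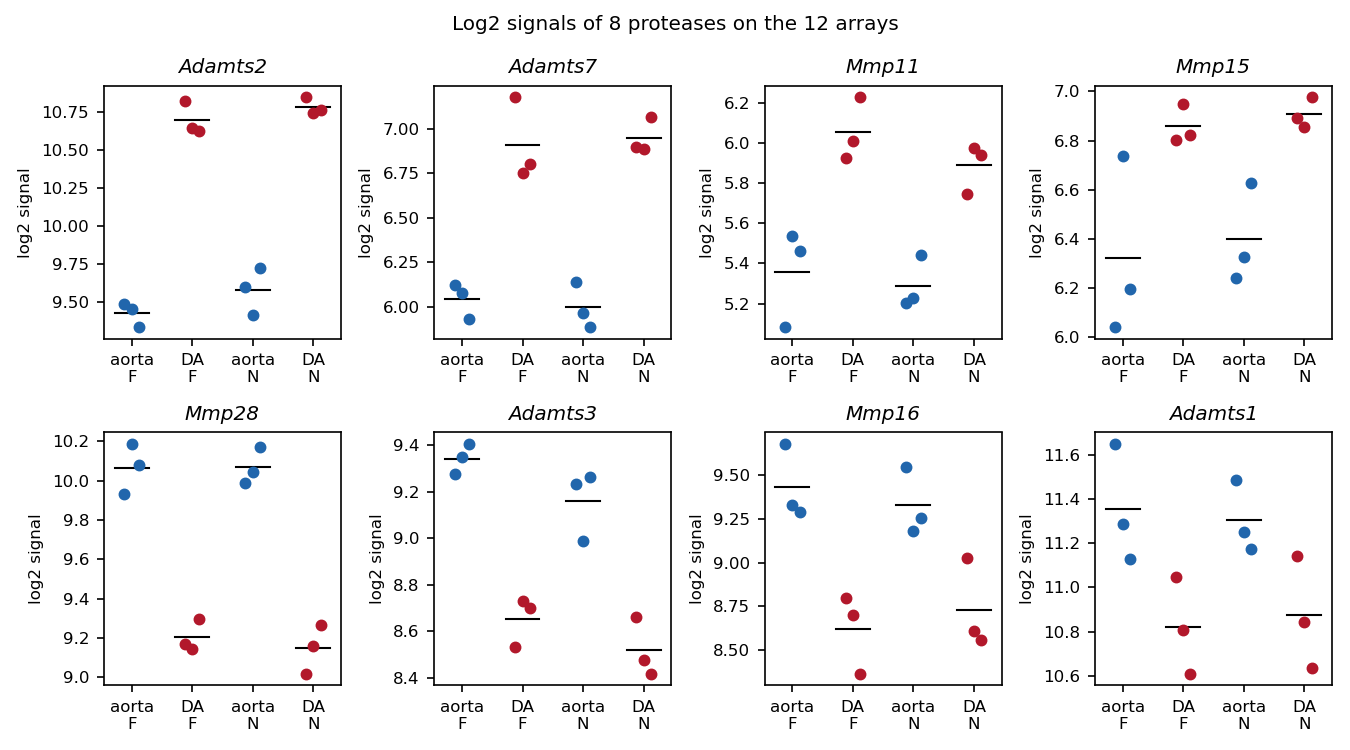
Log2 signals (vertical axis, its own range in each panel) of 8 proteases on the 12 arrays, with blue points for the aorta, red points for the DA and bars for the group means of 3 arrays. In the upper panels the DA arrays lie above the aorta arrays of the same stage, and in the lower panels they lie below them.

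Of the pair that cleaves cartilage oligomeric matrix protein, Adamts7 and Adamts12, the former was higher in the DA. Adamts7 had signals of 7.18, 6.75 and 6.80 in DA F against 6.12, 6.08 and 5.93 in aorta F, and of 6.90, 6.88 and 7.07 in DA N against 6.14, 5.97 and 5.89 in aorta N. The groups did not overlap, and the difference was 1.82-fold in F (log2 difference 0.86, SE 0.14, limma adjusted p = 0.00286) and 1.94-fold in N (0.95, SE 0.14, limma adjusted p = 0.00153). Adamts12 differed by -0.16 over both stages with an interval of -0.40 to 0.09 and did not pass.

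Among the proteoglycanases, which cut versican and related proteins, Adamts1 and its neighbour Adamts5 on chromosome 11 had lower values in the DA. Adamts1 had signals of 11.05, 10.81 and 10.61 in DA F against 11.65, 11.29 and 11.13 in aorta F, and of 11.14, 10.85 and 10.63 in DA N against 11.49, 11.25 and 11.18 in aorta N. In each of these groups replicate 1 was the highest and replicate 3 the lowest, so that the spread within a group was shared between the groups. The difference was -0.48 over both stages (limma adjusted p = 0.0333) and did not pass in F (-0.53, adjusted p = 0.158) or in N (-0.43, adjusted p = 0.368), whereas with the replicate block it passed in both (adjusted p = 0.00178 and 0.00852). The call over both stages was lost without any 1 array other than aorta F replicate 3, DA F replicate 1, aorta N replicate 3 or DA N replicate 1 (adjusted p = 0.0624 to 0.0881). Adamts5 differed by -0.40 over both stages (adjusted p = 0.127, and 0.00913 with the block). Adamts4, Adamts9 and Adamts15 differed by 0.20, -0.18 and 0.03 and did not pass.

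The stromelysin-3 gene Mmp11, whose product is activated inside the cell by furin, was the tested one of 4 stromelysins and matrilysins. Its signals were 5.92, 6.01 and 6.23 in DA F against 5.08, 5.53 and 5.46 in aorta F, and 5.75, 5.97 and 5.94 in DA N against 5.20, 5.23 and 5.44 in aorta N. All DA arrays lay above all aorta arrays, and the log2 difference was 0.69 in F (limma adjusted p = 0.0167) and 0.60 in N (limma adjusted p = 0.0466). On some arrays the signal of Mmp11 lay below the lys spike, so with the filter applied on every array the gene was not tested. The call in N was near the threshold. Of the 12 fits that each left out 1 array, the gene passed in N only in the one without aorta F replicate 1 (adjusted p = 0.05 to 0.211 in the others). In F it was lost without aorta F replicate 1, DA F replicate 2 or DA F replicate 3 (adjusted p = 0.0534 to 0.0849).

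Epilysin, encoded by Mmp28 and known from skin and other epithelia, was the MMP with the largest difference towards the aorta. Its signals were 9.17, 9.14 and 9.30 in DA F against 9.93, 10.19 and 10.08 in aorta F, and 9.02, 9.16 and 9.27 in DA N against 9.99, 10.05 and 10.17 in aorta N. Every DA array lay below every aorta array, by 1.82-fold in F (log2 difference -0.86, SE 0.12, limma adjusted p = 0.000971) and by 1.89-fold in N (-0.92, SE 0.12, limma adjusted p = 0.000684).

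The 5 membrane-type MMPs, which act at the cell surface, went both ways. Mmp16 (MT3-MMP) had signals of 8.80, 8.70 and 8.37 in DA F against 9.68, 9.33 and 9.29 in aorta F, and of 9.02, 8.61 and 8.56 in DA N against 9.54, 9.18 and 9.25 in aorta N. It was lower in the DA in F (log2 difference -0.81, limma adjusted p = 0.0194) and differed by -0.60 in N, where it did not pass (adjusted p = 0.112, 0.00254 with the replicate block and 0.047 without DA N replicate 1). The call in F was lost without aorta F replicate 1, aorta F replicate 2, DA F replicate 2 or DA F replicate 3 (adjusted p = 0.0504 to 0.0976). Mmp15 (MT2-MMP) had 6.80, 6.95 and 6.82 in DA F against 6.04, 6.74 and 6.20 in aorta F, and 6.89, 6.85 and 6.98 in DA N against 6.24, 6.33 and 6.63 in aorta N. It was higher in the DA over both stages by 0.52 (limma adjusted p = 0.0165), with the aorta arrays spread more widely than the DA arrays. Without aorta F replicate 2, the highest of the aorta arrays, it also passed in F (adjusted p = 0.0199), and without all arrays of any 1 replicate number it did not pass over both stages (adjusted p = 0.0941 to 0.122). Mmp24 (MT5-MMP) was higher by 0.33 (limma adjusted p = 0.0418), a call lost without any 1 array other than aorta F replicate 3, aorta N replicate 3 or DA N replicate 1 (adjusted p = 0.0682 to 0.111). With the block Mmp15 and Mmp24 also passed in F (adjusted p = 0.0391 and 0.0312). Mmp14 (MT1-MMP), the activator of the gelatinase proenzyme, differed by 0.00 over both stages with an interval of -0.21 to 0.22, and Mmp17 by 0.04.

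The gelatinases, which degrade basement membrane and denatured collagen, did not pass in any comparison. Mmp2 had signals of 11.98, 11.90 and 11.81 in DA F, 11.96, 11.88 and 11.75 in aorta F, 12.09, 11.95 and 11.86 in DA N and 11.93, 11.84 and 11.78 in aorta N. The groups overlapped, and the interval of the difference over both stages was -0.10 to 0.25. All 6 differences between arrays of the same number were positive, between 0.02 and 0.16. Mmp9 lay near the filter, with 7 of 12 arrays at or above the spike's mean, and differed by -0.07 with an interval of -0.30 to 0.16. Mmp23 differed by -0.06 and likewise did not pass.

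Of the 8 ADAM genes tested, 1 passed over both stages (12.5%, against 8.12% of all probe sets) and 0 in F or N alone. Adam9, a widely expressed sheddase, had signals of 9.71 to 9.73 in DA F against 9.43 to 9.50 in aorta F, and of 9.74 to 9.85 in DA N against 9.39 to 9.55 in aorta N. The groups did not overlap, yet the log2 difference was only 0.28 (limma adjusted p = 0.0296). This call was lost without any 1 array other than aorta N replicate 1 or DA N replicate 1 (adjusted p = 0.0558 to 0.0905). Adam17, which sheds tumour necrosis factor and ligands of the epidermal growth factor receptor, had signals of 8.80, 8.67 and 8.60 in DA F and of 9.40, 8.84 and 8.61 in aorta F, and it differed by -0.15 over both stages with an interval of -0.57 to 0.26. Adam15, found at endothelial junctions, differed by -0.16 (-0.34 to 0.03). The non-catalytic Adam11 and Adam23 differed by 0.06 and -0.03, and Adam1a, Adam4 and Adam4l1 by 0.01, -0.20 and -0.04.

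The ADAMTS-like proteins bind microfibrils. Adamtsl3 had signals of 5.03, 5.14 and 5.18 in DA F against 4.39, 4.80 and 4.65 in aorta F, and of 5.34, 5.24 and 5.03 in DA N against 4.71, 4.75 and 4.48 in aorta N. The DA arrays were all above the aorta arrays, by 0.53 over both stages (limma adjusted p = 0.00411). Alone, F and N did not pass (adjusted p = 0.0722 and 0.0514), and with the replicate block both did (adjusted p = 0.0197 and 0.0143). Without aorta F replicate 1 or DA N replicate 3 the gene passed in N (adjusted p = 0.0386 to 0.0451). Adamtsl4 and Adamtsl5 differed by 0.13 and -0.11 and did not pass.

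For the genes that passed both in F and in N, the 250 bases before the annotated start are shown because their promoters were compared with those above. GC boxes and TATA boxes on either strand are in capitals. Adamts2, Mmp11, Mmp28 and Adamts3 carried GC boxes, while the window of Adamts7 held no GC box and the TATA letters on the opposite strand only (TTTATA as printed), 18 bases before the start.
Adamts2, chr10:35421780-35422029, plus strand: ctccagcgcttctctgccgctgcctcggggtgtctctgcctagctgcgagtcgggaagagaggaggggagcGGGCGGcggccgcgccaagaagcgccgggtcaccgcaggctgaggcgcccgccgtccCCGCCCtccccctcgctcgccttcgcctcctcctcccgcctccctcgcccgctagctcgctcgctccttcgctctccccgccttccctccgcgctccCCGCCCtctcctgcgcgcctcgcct
Adamts7, chr8:99584279-99584528, plus strand: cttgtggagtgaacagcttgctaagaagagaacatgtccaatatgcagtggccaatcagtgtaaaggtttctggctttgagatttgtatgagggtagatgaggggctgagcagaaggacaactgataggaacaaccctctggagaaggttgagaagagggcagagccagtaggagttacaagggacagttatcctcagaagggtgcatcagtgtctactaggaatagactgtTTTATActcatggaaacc
Mmp11, chr20:12730034-12730283, plus strand: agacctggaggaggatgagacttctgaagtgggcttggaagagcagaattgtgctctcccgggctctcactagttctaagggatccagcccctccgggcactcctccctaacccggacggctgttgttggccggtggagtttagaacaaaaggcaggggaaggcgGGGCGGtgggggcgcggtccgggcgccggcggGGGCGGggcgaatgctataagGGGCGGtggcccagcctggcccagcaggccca
Adamts3, chr14:18514999-18515248, plus strand: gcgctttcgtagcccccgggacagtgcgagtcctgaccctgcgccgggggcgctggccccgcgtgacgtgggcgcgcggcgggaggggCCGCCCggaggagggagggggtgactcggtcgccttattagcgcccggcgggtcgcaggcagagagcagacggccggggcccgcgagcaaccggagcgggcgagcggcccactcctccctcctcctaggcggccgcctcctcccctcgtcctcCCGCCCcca
Mmp28, chr10:68762378-68762627, minus strand: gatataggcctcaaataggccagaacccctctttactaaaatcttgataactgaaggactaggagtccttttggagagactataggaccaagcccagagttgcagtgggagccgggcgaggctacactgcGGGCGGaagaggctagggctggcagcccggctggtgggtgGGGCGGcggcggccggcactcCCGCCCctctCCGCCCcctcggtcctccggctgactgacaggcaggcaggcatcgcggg

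Over both stages, the GC box was in 5 of 6 windows of genes higher in the DA, in 3 of 3 windows of genes lower in the DA and in 9 of 16 windows of tested genes that did not pass. A SMAD box (GTCTAGAC), present in 0.215% of all promoters, was in 0 of the 37.

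With limma on all arrays and no block, the 4 inhibitors did not pass in any comparison. Timp1 had signals of 11.74, 11.64 and 11.52 in DA F against 11.87, 11.87 and 11.93 in aorta F, and of 11.59, 11.81 and 11.65 in DA N against 11.76, 11.93 and 11.73 in aorta N. Its arrays were separated in F and overlapped in N, with a difference of -0.19 over both stages (interval -0.37 to -0.02, limma adjusted p = 0.214). Timp2, which also takes part in the activation of the Mmp2 proenzyme, differed by 0.12 (-0.07 to 0.30). Timp3, the TIMP that binds to the matrix, had 9.78, 10.15 and 10.41 in DA F against 9.98, 10.64 and 10.62 in aorta F, and 9.70, 10.30 and 10.41 in DA N against 10.05, 10.55 and 10.45 in aorta N. Replicate 1 was the lowest in each of these groups. Timp3 differed by -0.26 (adjusted p = 0.514, and 0.0232 with the replicate block) and Timp4 by -0.30 (adjusted p = 0.305, and 0.0207 with the block). With array weights of the default estimator, which did not converge, Timp1 and Timp4 passed over both stages (adjusted p = 0.0343 and 0.00943), and with the methods' t-test, an unpaired t-test without adjustment, Timp1 passed in F (unadjusted p = 0.0169). In each TIMP the 6 differences between arrays of the same number had the same sign, negative for Timp1, Timp3 and Timp4 and positive for Timp2. How often this held over all probe sets was not computed, so it is a description only.

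**Figure D3:**
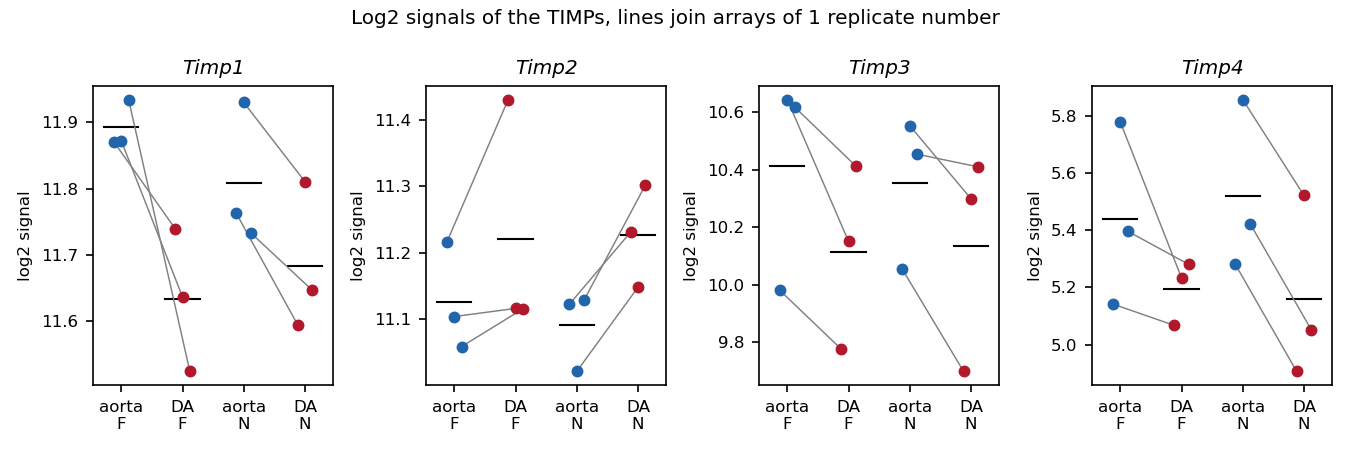
Log2 signals (vertical axis, its own range in each panel) of the 4 TIMPs on the 12 arrays, with blue points for the aorta, red points for the DA, black bars for group means and grey lines that join arrays of the same replicate number within a stage. The lines of Timp1, Timp3 and Timp4 all fall towards the DA and those of Timp2 all rise.

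The second question was whether these genes change within 30 minutes of birth. In the DA 0 of the 35 genes passed between N and F, where 0.00535% of all probe sets passed, and in the aorta 0 of 35 passed, where 0% of all probe sets did. At an unadjusted p under 0.05 limma named 1 gene in each vessel, against 2.01% and 1.38% of all probe sets, and the methods' t-test named 2 higher and 1 lower in the DA and 0 in the aorta, against 2.27% and 2.04% of all probe sets. Adam1a was the gene in the DA, with 5.66, 5.96 and 5.98 in F and 5.55, 5.40 and 5.25 in N (log2 difference -0.46, unadjusted p = 0.00583, adjusted p = 1 in limma). Adamts9 was the gene in the aorta, with 5.45, 6.03 and 5.64 in F and 5.92, 6.23 and 6.31 in N (log2 difference 0.45, unadjusted p = 0.0256, adjusted p = 1 in limma), and in the DA it differed by 0.36. Mmp14 differed by 0.29 in the DA (interval -0.01 to 0.59), while in the aorta Adamts3 differed by -0.18 and Adamts12 by 0.23. Between N and F the 35 genes had a median absolute difference of 0.08 for the DA and 0.07 for the aorta, against 0.25 in F and 0.22 in N for the DA against the aorta. Over all probe sets tested these medians were 0.09, 0.08, 0.14 and 0.12, in the same order. A smaller difference between stages than between vessels thus held over all probe sets too.

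**Figure D4:**
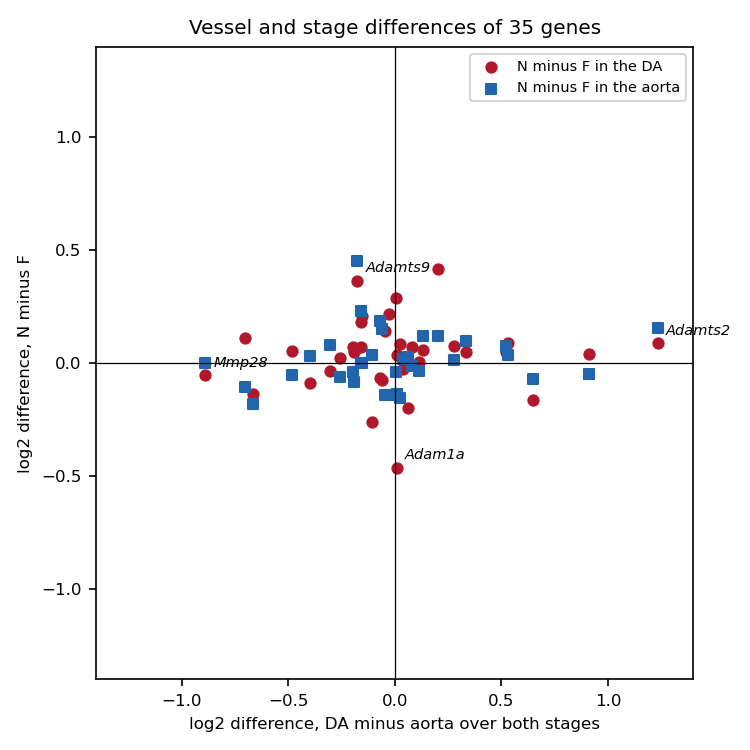
Log2 difference between N and F (vertical axis; red circles in the DA, blue squares in the aorta) against the log2 difference between the DA and the aorta over both stages (horizontal axis) for the 35 tested genes, 1 circle and 1 square per gene on equal scales. The points spread from -0.89 to 1.23 along the vessel axis and from -0.46 to 0.45 along the stage axis.

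The difference between the DA and the aorta was also compared between N and F. With limma 0 of the 35 genes passed, as did 0% of all probe sets, and at an unadjusted p under 0.05 limma named 0 of the 35 and 0.931% of all probe sets. The smallest p-values were those of Adam23, Adam1a and Mmp14 (unadjusted p = 0.118, 0.121 and 0.122, adjusted p = 1 in limma). For Adamts2 the change was -0.07 and for Mmp28 -0.06, and the widest interval among the 35 genes reached 0.86 to either side of its value. A p that misses the threshold does not show that the vessels changed alike.

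Related genes were described from lists of 51 activators, inhibitors and substrates, 43 of which were tested. In F 5 were higher and 2 lower in the DA, in N 4 were higher and 0 lower, and over both stages 6 were higher and 6 lower. These were 16.3%, 9.3% and 27.9% of the 43, against 3.77%, 3.14% and 8.12% of all probe sets. The lists were chosen with earlier results of these data known, so these shares are no separate support. Of the activators and cofactors, Plat, which encodes tissue plasminogen activator, differed by 1.27 in F (limma adjusted p = 5.42e-05) and 1.30 in N (5.22e-05), higher in the DA. Of the matrix substrates Fbn1, the microfibril protein fibrillin-1, was higher by 1.11 and 1.03 (limma adjusted p = 0.00276 and 0.0051). Of the 14 surface proteins that are shed, 12 had negative and 2 positive differences at each stage and over the 2 stages. Among all 18690 probe sets tested, 9444 were negative in F, 9449 in N and 9359 with the stages combined. The 8 endothelial marker genes had 7 negative and 1 positive differences in each of these comparisons. Whether the signs of the shed proteins differ from those of endothelial genes at large was not tested. The Notch ligand Dll1 and the chemokine Cxcl16 were lower in F and over both stages, where they differed by -0.55 and -0.45 (limma adjusted p = 0.00425 and 0.00428). Cdh2 (N-cadherin) was 1.19 higher in DA F and 1.14 higher in DA N than in the aorta (limma adjusted p = 5.77e-05 and 9.48e-05). Reck, a membrane-anchored inhibitor of MMPs, had a log2 difference of -0.35 over both stages and was lower in the DA (limma adjusted p = 0.0197). Its call was lost without aorta F replicate 2 or DA F replicate 2 (adjusted p = 0.0547 to 0.0565). It was also lost without all arrays of any 1 replicate number (limma adjusted p = 0.0826 to 0.449). With the replicate block Reck also passed in F (adjusted p = 0.0222).

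Some markers of other cell types differed between the vessels and others did not. The summed linear signal of 7 smooth muscle genes was 2880 to 3030 in DA F against 1860 to 2220 in aorta F, and 2930 to 3870 in DA N against 2010 to 2270 in aorta N. Over both stages 4 of the 7 were higher in the DA and Myocd was lower. The sum of 8 endothelial genes was 15600 to 16500 in DA F against 17200 to 18900 in aorta F, and 15700 to 17000 in DA N against 17700 to 19200 in aorta N, with Cldn5 lower in the DA and the other 7 not passing. Fibroblast sums overlapped (4250 to 5310 in the DA and 5000 to 5370 in the aorta), with Lum below the spike's mean, Col1a2 higher and Col1a1 lower over both stages. Singly, 4 of the 5 tested fibroblast genes had positive and 1 negative differences at each stage. With the replicate block 3 were higher and 1 lower over both stages, where 17.8% of all probe sets passed. The mesothelial gene Msln was higher over both stages by 0.56, 0 of the tested leukocyte, erythroid and Schwann cell genes passed over both stages, and of the leukocyte markers Ptprc, Lyz2 and Cd3e lay below the spike's mean. Erythroid sums were 212 to 275 in DA N against 402 to 501 in aorta N, 400 to 1140 in DA F and 431 to 606 in aorta F, so that the DA N arrays lay apart from the others. The part of these other cells in the differences of the proteases was not tested.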

How the data were processed

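The authors hybridized RNA of FACS-sorted ECs to 12 Rat Gene 1.0 ST arrays, 3 per group, and deposited normalized log2 signals for 26468 probe sets. How they were summarized is not given in the labels or methods, and no further normalization was applied. Symbols came from the platform annotation (15307 probe sets with 1 symbol, 323 with several, 10838 with none), and all 58 symbols were in the RefSeq table. Probe sets whose mean was below that of the lys spike were left out (7777), and the other 18690, the spike aside, entered a fit of 4 group means by limma (version 3.58.1, R version 4.3.3), with two-sided tests and Benjamini-Hochberg adjustment over all of them. A p-value adjusted in this way and below 0.05 was a call. The procedure was tested on simulated data. The genes and lists were chosen with earlier results of these data known. Named were all genes called, the TIMPs, 7 proteases best known in vessels, the 5 with the highest mean, the 3 with the smallest p in each stage comparison and in the difference of the vessel contrast, and related genes called in F and N with a log2 difference of at least 1, with Reck. Further genes of a group, such as Adamts5, were added once their values were known.

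The replicate numbers come from the titles, and what they stand for is not stated. The paper counts litters by developmental group and not by vessel, so the DA and aorta pools of a stage may share litters. The fit without a block treats all pools as independent. Across genes, deviations from group means had correlations of 0.54 to 0.82 between arrays numbered 1 and 0.10 to 0.30 between those numbered 2. They were 0.39 to 0.74 between those numbered 3, and -0.74 to 0.37 between arrays of different numbers. Such deviations cancel out within a group, which lowers the correlations between different numbers. Correlations for numbers 1 and 3 lay above that range, and those for number 2 lay inside it. The number was also fitted as a block. Other alternatives were the methods' t-test, the filter, the normalization, array weights, an intensity trend, the mean over a gene's probe sets and leaving out arrays. The non-converged array weights and the fits without all arrays of a number were added after seeing the data.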

Additional observations from a re-analysis of the deposited data

How the results depend on the processing

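With arrays left out, the number of genes higher in the DA ranged from 1 to 4 in F (3 with all arrays), 0 to 4 in N (3) and 2 to 7 over both stages (7), and the number lower from 0 to 3 in F (3), 0 to 4 in N (2) and 2 to 5 over both stages (4). The lowest of these came without all arrays of replicate 2, where Adamts7 and Mmp28 passed in neither stage (adjusted p = 0.142 to 0.197) and Adamts2 not in N (adjusted p = 0.0581). Some calls were lost whichever replicate number was left out. These were Adam9, Mmp15, Mmp24 and Reck over both stages, Mmp11 in F and in N, and Adamts3 in N. Unadjusted, the methods' t-test named 7 higher and 5 lower in F and 8 higher and 3 lower in N. In the DA it named 2 higher and 1 lower between N and F. After Benjamini-Hochberg it left 1 higher and 0 lower in F and 0 higher and 0 lower in N. The replicate block gave 6 higher in F, 4 lower in N and 7 lower over both stages, and among the named genes it changed no call other than those given with it above. Array weights fitted gene by gene gave 7 higher and 5 lower in N. Those of the default estimator, which did not converge, gave 5 higher and 5 lower in F, 1 lower in N, 8 lower over both stages and 5 lower between N and F in the aorta. The filter on every array left 4 higher over both stages (Adam9, Adamts2, Adamts7 and Mmp15). Under it Mmp11, Mmp24 and Adamtsl3, each below the spike on some arrays, were not tested. Shares of all probe sets were given above for the replicate block and for the t-test between N and F. For the other alternatives they were not computed, so a change in these counts cannot be told from a general change in calls. Without any filter on low values Adam9, Mmp24 (both stages) and Mmp11 (N) did not pass (adjusted p = 0.0646, 0.0718 and 0.0726). With the intensity trend Mmp24 and Mmp11 did not pass (0.0563 and 0.0569), with median-centred arrays Adamts1 over both stages did not (0.0577), and with quantile normalization it passed in F (0.0494). The cause was not tested. Among 797 values recomputed for single genes that had passed, 0 changed sign, while of 3405 values for those that had not passed 226 did, and 1 of these passed (Adam15, N against F in the aorta, -0.23 with the default array weights, adjusted p = 0.04). Signals near the lys spike, as of Mmp9, Adamtsl3, Adam4l1 and Adam23, or below it on some arrays, as also of Mmp11 and Mmp24, limit what can be told of these genes.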
